A study of Mus musculus with 2 samples.

Results

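The genes of endosomal sorting, retromer and exocyst were taken by name from the deposited table. They are the rows whose symbol starts with Vps, Snx, Exoc or Chmp followed by a digit, together with Vipas39 and Wdr91. This gave 85 of the 23418 rows. Vipas39 and Wdr91 had been added because their ratios between the libraries were among the highest of all genes, so their values are given as a description and support nothing. The data are RNA captured on oligo-dT beads from mouse embryos of the C57BL/6 background at the 4 to 8-cell stage. The siRNA injected was siDnmt1, directed at the methyltransferase that maintains DNA methylation, or a scrambled control, and each group was 1 library from a pool of 20 embryos. With 1 library per group no difference had a replicate check and no test could be made. Every statement below concerns these libraries, and every interval is a 95% interval of the ratio of counts that covers counting error alone. All embryos carried an injected siRNA. The single embryos of a pool cannot be told apart, and neither can fewer cells of a kind from less RNA per cell.

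Endosomes receive membrane proteins from the cell surface and send them on to the lysosome, to the Golgi or back to the surface. Retromer and the sorting nexins pull cargo into recycling tubules. The ESCRT complexes push ubiquitin-tagged cargo into internal vesicles, and the HOPS, CORVET, GARP and exocyst tethers hold arriving vesicles at their target membrane. ESCRT-III also cuts the membrane bridge at the end of cell division. Cleavage-stage embryos use endocytosis and lysosomal breakdown to clear maternal proteins, and directed secretion when the outer cells polarise.

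The libraries held 12236615 counts (siDnmt1) and 11675483 counts (scrambled), of which Rn45s, the ribosomal RNA precursor, took 37.3% and 29.9%. Dnmt1 itself had 687 and 847 counts, 1.23-fold lower in siDnmt1 (1.11 to 1.37). All 6 cumulus and granulosa markers and all 4 fibroblast markers had 0 counts in both libraries. Of 3 blood markers, both globin genes had 0 and Ptprc had 16 and 6 counts.

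The promoters of the genes at the ends of the range are shown first, since Dnmt1 acts on the CpG dinucleotide. The table of RefSeq promoters (build GRCm38.p6) had an entry for 59 of the 85 genes. The 4 genes with the highest log2 ratios, and Vps29 from the other end, are given as the 250 bases before the annotated start, 5′ to 3′ on the strand of the gene, with each CpG in capitals.
Vipas39, chr12:87266287-87266536, minus strand: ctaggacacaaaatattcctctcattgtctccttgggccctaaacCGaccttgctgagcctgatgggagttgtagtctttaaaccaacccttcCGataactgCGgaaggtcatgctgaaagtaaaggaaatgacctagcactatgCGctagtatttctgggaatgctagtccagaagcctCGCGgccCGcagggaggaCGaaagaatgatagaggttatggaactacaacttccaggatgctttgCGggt
Wdr91, chr6:34910832-34911081, minus strand: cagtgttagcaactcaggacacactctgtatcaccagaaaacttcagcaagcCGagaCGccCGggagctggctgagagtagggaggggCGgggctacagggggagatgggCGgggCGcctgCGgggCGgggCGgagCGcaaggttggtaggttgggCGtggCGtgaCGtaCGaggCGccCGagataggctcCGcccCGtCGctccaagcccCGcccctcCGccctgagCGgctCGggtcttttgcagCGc
Exoc6b, chr6:85069514-85069763, minus strand: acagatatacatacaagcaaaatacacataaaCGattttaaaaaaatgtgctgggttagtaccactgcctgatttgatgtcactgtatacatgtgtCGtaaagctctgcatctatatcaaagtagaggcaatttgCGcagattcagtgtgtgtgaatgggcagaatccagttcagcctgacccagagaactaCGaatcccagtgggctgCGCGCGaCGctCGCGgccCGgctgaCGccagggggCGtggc
Exoc8, chr8:124897706-124897955, minus strand: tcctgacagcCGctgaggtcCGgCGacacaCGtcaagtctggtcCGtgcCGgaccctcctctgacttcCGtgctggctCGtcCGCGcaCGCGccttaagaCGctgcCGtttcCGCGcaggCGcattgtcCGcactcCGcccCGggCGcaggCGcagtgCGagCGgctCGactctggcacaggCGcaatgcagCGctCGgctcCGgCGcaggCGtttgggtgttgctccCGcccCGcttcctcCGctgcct
Vps29, chr5:122354078-122354327, plus strand: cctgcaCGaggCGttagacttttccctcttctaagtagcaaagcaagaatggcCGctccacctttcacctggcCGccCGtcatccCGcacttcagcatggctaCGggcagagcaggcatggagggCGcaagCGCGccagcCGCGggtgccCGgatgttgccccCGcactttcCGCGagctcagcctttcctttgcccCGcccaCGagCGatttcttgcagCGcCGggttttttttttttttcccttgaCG
These stretches held 9 CpG in Vipas39, 24 in Wdr91, 13 in Exoc6b, 34 in Exoc8 and 22 in Vps29. Over windows of 300 bases, which add the first 50 bases of the transcript, the 9 genes at least 2-fold higher with an entry had a median of 22 CpG (10 to 49), and a median of 22 (15 to 49) without Vipas39 and Wdr91. The 6 genes at least 2-fold lower had a median of 25 (13 to 27), and the 32 genes within 2-fold had a median of 21. Among all genes compared these medians were 22, 21 and 23. The ranges overlapped; methylation was not analysed here.

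A second set of stretches is shown because several of these promoters carried an E-box, CACGTG, which reads the same on both strands. It was found in 7 of the 59 genes with an entry, in 11 of their 76 windows (14.5%), in 7.15% of all 32851 windows and in 10.5% of the 7163 windows of genes compared. With the 2 bases on each side, the form shared by most genes was GTCACGTGAC, found in 3 of the 59. It is known as the CLEAR element, the binding sequence of the lysosomal regulator TFEB. It stands in capitals, in 40-base stretches of the same build.
Vps16, chr2:130424285-130424324, plus strand: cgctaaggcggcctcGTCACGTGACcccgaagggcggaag
Vps33a, chr5:123573005-123573044, minus strand: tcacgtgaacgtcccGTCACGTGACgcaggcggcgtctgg
Vps26a, chr10:62486965-62487004, minus strand: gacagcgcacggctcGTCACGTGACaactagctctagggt
Vps26a, chr10:62486727-62486766, minus strand: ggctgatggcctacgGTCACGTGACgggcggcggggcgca
Vps16 and Vps33a encode subunits of the core that HOPS and CORVET share, and Vps26a a subunit of retromer, whose promoter windows held the element at 2 places. This longer form was in 4 of the 76 windows (5.26%) and in 107 of all 32851 windows (0.326%). The median was 7 CpG over all genes with an entry, against 22 over the 59 genes and 22 over all genes compared, so all windows are a background poorer in CpG. Among the 7163 windows of genes compared, 60 held the longer form (0.838%). This form was singled out after several known motifs had been searched, as the one shared by most of these same genes. Its share against the background follows in part from that choice, and the match is a description. Vps16 had 79 counts in siDnmt1 and 64 in scrambled and Vps33a 411 and 424, both with intervals that contained equality. Vps26a had 836 and 619 and was 1.35-fold higher in siDnmt1 (1.22 to 1.5).

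Of the 85 genes, 61 averaged 20 counts or more over the 2 libraries and were compared. The minimum was set on the mean, so a gene could pass it through 1 library alone. A gene was counted as higher or lower when log2((siDnmt1 + 5)/(scrambled + 5)) was at least 1 or at most -1, which is called 2-fold below. Of the 61 genes, 10 were at least 2-fold higher in siDnmt1 (16.4%), against 12.5% of all 7315 genes compared. A further 8 were at least 2-fold lower (13.1%), against 16.7% of all genes, and 43 lay within 2-fold. Without Vipas39 and Wdr91, which were added for their values, 8 of 59 were higher (13.6%) and 8 lower (13.6%). The median log2 ratio of the 61 genes was -0.01 against -0.02 for all genes, and the interquartile range was 1.23 against 1.24. As a set these genes were thus spread like the rest of the table. The ratios are described by complex below, and whether the complexes differed more than other small groups of genes was not tested.

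Counting error alone was exceeded by most of them. The counting interval lay wholly above a ratio of 1 for 21 of the 61 genes and wholly below it for 21, and 19 intervals contained equality. For all genes compared the interval lay above 1 for 35.4% and below 1 for 37.0%. An interval that leaves out equality was therefore common in these libraries. In GENCODE M21, exons of 20 of the 61 genes overlap exons of another gene, 15 of them a protein-coding one. Another annotated gene matched 8 of the 61 at 95% identity or more over at least 500 nt. These counts are uncertain where the authors' counting could split or drop shared reads.

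Genes of the embryo's own stage also differed between the libraries. Of 4 markers of the early embryo and oocyte that were compared, 2 were at least 2-fold lower in siDnmt1, against 16.7% of all genes compared. The lower markers, Dppa3 (833 nt) and Zp3 (1323 nt), have short transcripts. Among all genes compared below 1500 nt, 51.4% were at least 2-fold lower. Whether these markers differed more than other genes of their length was not tested. The median log2 ratio of the 4 markers was -0.91 (-0.31 with the trend on transcript length removed). Dppa3, a maternal factor that protects DNA methylation, had 70 and 194 counts, and Zp3, of the egg coat, 13 and 42. Nlrp5 (189 and 257) and Gdf9 (27 and 24, slightly higher in siDnmt1) lay within 2-fold. The summed counts of all 8 listed genes were 305 and 541, 1.77-fold lower (1.54 to 2.05), and Zar1 and Oog1 had 0 in both libraries. Of 5 markers of the 8-cell stage and later, Tfap2c (282 and 577) was at least 2-fold lower and 0 were higher, with a median of 0.03. The shares of all genes compared were 16.7% and 12.5%. Pou5f1 had 1489 and 2152 counts, Tead4 2455 and 2202, and Klf5 484 and 475. Nanog had 40 and 23, 1.74-fold higher (1.02 to 3.04). The part of these markers in the differences of the sorting genes was not tested.

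**Figure D1:**
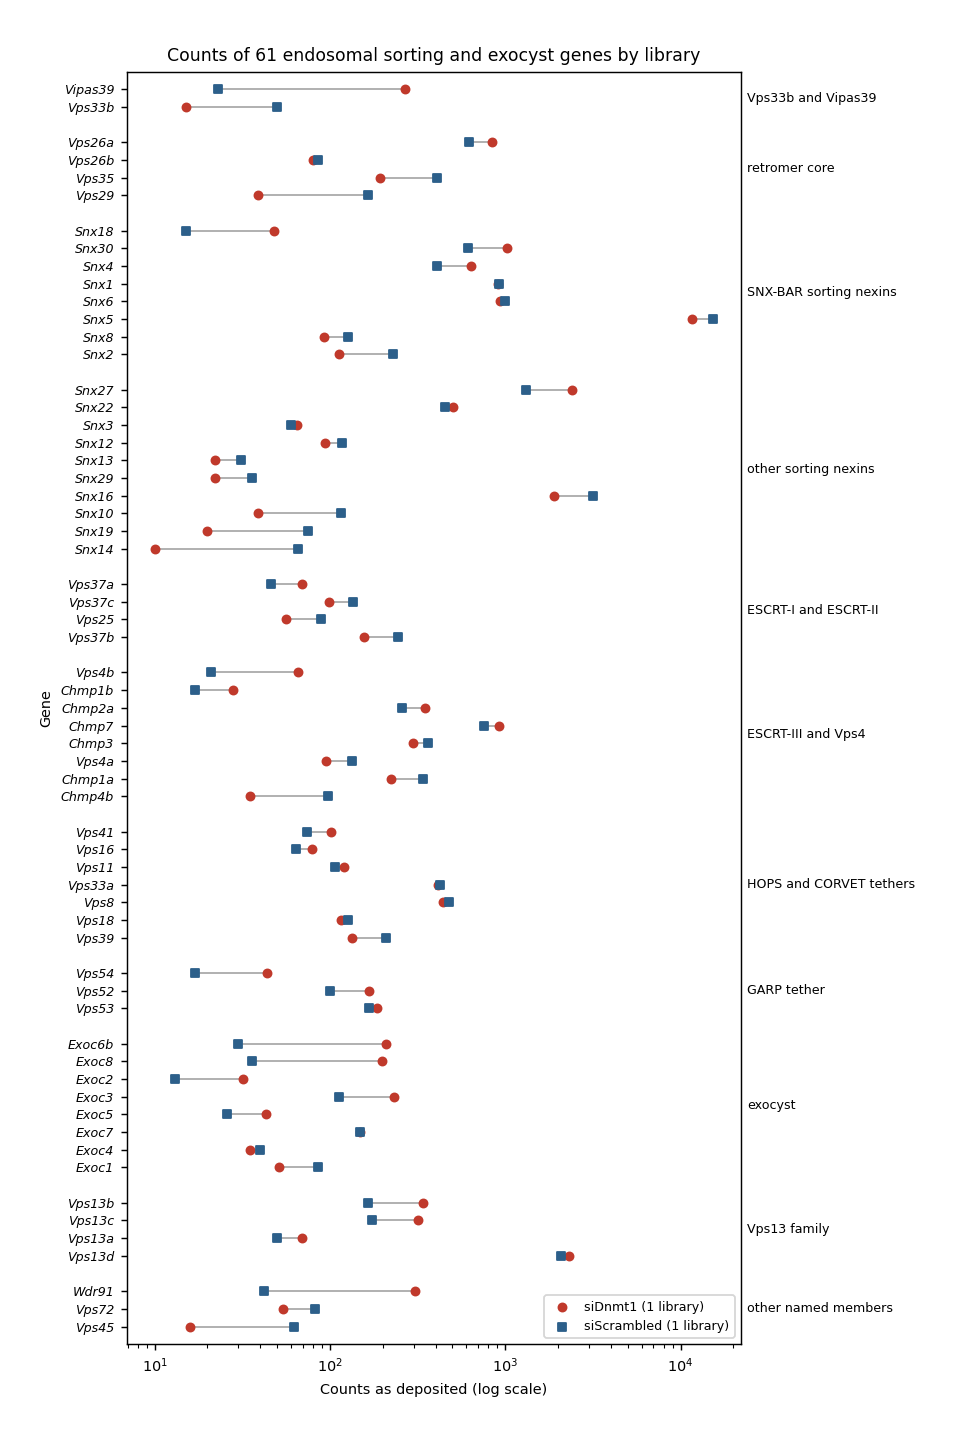
Deposited counts (log axis) of the 61 genes compared, grouped by complex; circles are the siDnmt1 library and squares the scrambled library, joined by a line for each gene. Among genes with the siDnmt1 circle to the right, the longest lines are those of Vipas39 (269 and 23), Wdr91 (305 and 42) and Exoc6b (208 and 30). Snx14 (10 and 66) has the longest line with the scrambled square to the right.

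The other 24 genes fell under the minimum of 20 counts. Of these, Exoc3l, Snx31, Snx32 and Vps37d had 0 counts in both libraries. The 20 with a count reached at most 19 in siDnmt1 and 17 in scrambled. Of these 20, 15 had more counts in siDnmt1, 4 fewer and 1 the same. The same tally was not made for the other genes under the minimum, so it cannot be read as particular to this set. Vps28, a subunit of ESCRT-I, had 10 counts and 1 (ratio 10.0, 1.42 to 434). Exoc3l4, a relative of the exocyst subunit Exoc3, had 17 and 1 (ratio 17.0, 2.66 to 710), and Snx24 had 14 and 2 (ratio 7.0, 1.61 to 63.5). These intervals are wide, and the ratios of genes with so few counts are imprecise.

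Levels were compared between genes as counts per kb of the longest transcript per 1000000 counts without Rn45s. On this scale Snx5 was far above the others, at 600.0 in siDnmt1 and 745 in scrambled. It encodes a sorting nexin with a BAR domain that bends membranes into tubules and binds cargo. It ranked 38 and 28 of 23026 genes with a length, and its 11560 and 15331 counts were 37.9% and 46.5% of all counts of the 85 genes. The next in the scrambled library were Snx16 (98 and 155), which acts in early to late endosome traffic, Snx6 (63.4 and 63.5) and Snx1 (57.5 and 54.3). The lowest of the genes compared was Snx14 in siDnmt1 (0.419, against 2.59 in scrambled) and Exoc5 in scrambled (0.250, against 0.441 in siDnmt1). Because of Snx5, the summed counts of the 85 genes were 1.08-fold lower in siDnmt1 (1.06 to 1.1), with 30512 against 32968, whereas without Snx5 they were 1.07-fold higher (1.05 to 1.1), with 18952 against 17637.

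Retromer is a trimer of Vps26, Vps29 and Vps35 that recognises cargo on the endosome, and its subunits differed in direction. Vps35, the scaffold of the trimer, had 192 counts in siDnmt1 and 409 in scrambled, 2.13-fold lower (1.79 to 2.54). Vps29, which binds regulators of the GTPase Rab7, had 39 and 165, 4.23-fold lower (2.97 to 6.16). Vps26a had 836 and 619, 1.35-fold higher (1.22 to 1.5), and its paralogue Vps26b had 80 and 86, with an interval that contained equality. The scaffold and Vps29 were thus lower while the more abundant Vps26 gene was not. Per length, Vps26a made up 81.0% of the level of the 4 genes in siDnmt1 and 59.6% in scrambled, Vps35 10.1% and 21.3%, and Vps29 3.0% and 12.8%. Vps35 overlaps Orc6 on the opposite strand, which had 180 and 323 counts; the library kit described in the labels does not mark strand, so reads of the overlap cannot be assigned. With totals made equal after leaving out Rn45s, the log2 ratio of Vps35 was -0.98 and no longer reached 2-fold.

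**Figure D2:**
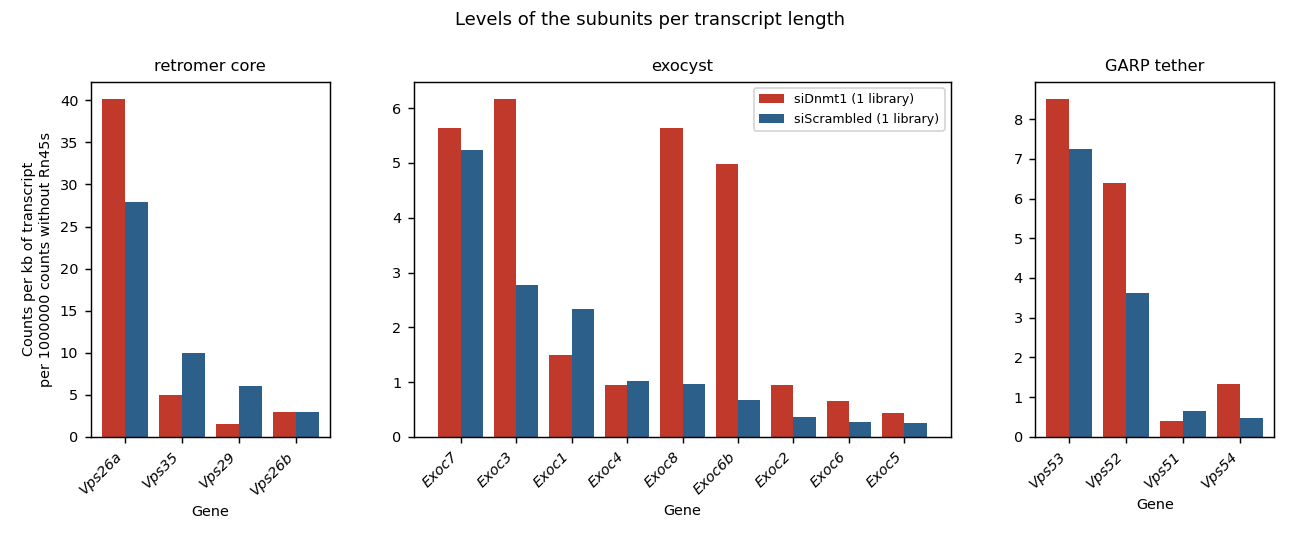
Bars give counts per kb of transcript per 1000000 counts without Rn45s for each subunit gene of retromer, exocyst and GARP, in siDnmt1 and in scrambled (1 library each, so no error bars). Vps26a stands above the other retromer genes in both libraries (40.2 and 27.9), and Exoc8 (5.64 and 0.956) and Exoc6b (4.99 and 0.674) differ most within the exocyst.

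Sorting nexins with a BAR domain form the coat of recycling tubules, and 8 of their 12 genes were compared. Of these 1 was at least 2-fold higher and 0 lower, against 12.5% and 16.7% of all genes compared, with a median log2 ratio of -0.05. Snx1 had 914 and 921 counts and Snx6 937 and 1002, close to equality. Their partner Snx2 had 113 and 230 counts, 2.04-fold lower (1.62 to 2.57), just short of 2-fold on the log2 scale with the pseudocount (-0.99). The Snx1 and Snx2 proteins act interchangeably with retromer, and per length Snx2 was 11% of the pair's level in siDnmt1 and 20.0% in scrambled. A processed pseudogene that nearly matches Snx2, Gm12543 (99.1% over 543 nt), shares exons with Snx30, so the counts of Snx2 and Snx30 are uncertain. Snx18, which acts in endocytosis and in the forming autophagosome, had 48 and 15 counts, 3.20-fold higher (1.76 to 6.15). With a pseudocount of 20 its log2 ratio was 0.96 and it no longer reached 2-fold. Snx30 (1020 and 612) and Snx4 (638 and 406), which form a recycling coat of their own, were 1.67-fold (1.51 to 1.85) and 1.57-fold higher (1.39 to 1.78).

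Of the 18 other sorting nexins 10 were compared, and 3 were at least 2-fold lower and 0 higher (16.7% and 12.5% of all genes compared), with a median log2 ratio of -0.51. Snx14, which joins lipid droplets to the endoplasmic reticulum, had 10 and 66 counts, 6.60-fold lower (3.37 to 14.4). Its relative Snx19 had 20 and 75, 3.75-fold lower (2.27 to 6.49). Snx10, which works with the proton pump of lysosomes, had 39 and 116, 2.97-fold lower (2.05 to 4.39). All 3 rest on few counts in siDnmt1, and Snx14 shares exons with Gm20537 on the same strand. Snx13, of the same subfamily as Snx14 and Snx19, had 22 and 31 counts, with an interval that contained equality (1.41-fold lower, 0.790 to 2.55). Snx27, which links retromer to receptors with a PDZ-binding tail, had the highest ratio of this group, with 2396 and 1321 counts, 1.81-fold higher (1.70 to 1.94). Snx16, the highest of the group by level, had 1888 and 3187 counts, 1.69-fold lower (1.59 to 1.79).

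Vps33b and Vipas39 encode a pair of proteins that bind each other and act in sorting towards granules and recycling endosomes. They lay at opposite ends of the range. Vipas39 had 269 counts in siDnmt1 and 23 in scrambled, 11.7-fold higher (7.63 to 18.8). Vps33b had 15 and 50, 3.33-fold lower (1.84 to 6.39). Vps33a, the paralogue of Vps33b in the HOPS and CORVET core, had 411 and 424 and did not differ beyond counting error. Per length, Vps33b was 5.66% of the level of the Vps33 pair in siDnmt1 and 16.2% in scrambled. The gene Ahsa1, which starts 223 nt from Vipas39 on the opposite strand in GENCODE M21, had 56 and 83 counts and lay within 2-fold.

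Wdr91, an effector of Rab7 that lowers phosphatidylinositol 3-phosphate on endosomes, had 305 counts in siDnmt1 and 42 in scrambled, 7.26-fold higher (5.25 to 10.3). Its partner Wdr81 had 542 and 733 counts, and the kinase subunits that make this lipid, Pik3c3 (830 and 481) and Pik3r4 (2338 and 2065), lay within 2-fold. Vps45, which controls membrane fusion at endosomes, had 16 and 62 counts, 3.88-fold lower (2.21 to 7.19). Vps72 carries the same prefix but encodes a histone H2A.Z chaperone of chromatin remodellers. It had 54 and 82 counts, 1.52-fold lower (1.06 to 2.18).

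ESCRT-I and ESCRT-II gather ubiquitin-tagged cargo before ESCRT-III acts. Of their 7 genes 4 were compared and 0 reached 2-fold, against 29.1% of all genes compared. The interval lay wholly below a ratio of 1 for 3 of the 4 and wholly above it for Vps37a. Among all genes compared these shares were 37.0% and 35.4%. Vps37b (156 and 244), Vps37c (99 and 136) and the ESCRT-II gene Vps25 (56 and 89) were 1.56-fold, 1.37-fold and 1.59-fold lower, and Vps37a (69 and 46) was 1.5-fold higher (1.02 to 2.23). Vps25 overlaps Ramp2 on the same strand in GENCODE M21. With the length trend removed its log2 ratio was 0.23, against -0.62 as reported. The median log2 ratio of these 4 genes was -0.53, and -0.05 with that trend removed, and the summed counts of the 7 genes were 396 and 520, 1.31-fold lower (1.15 to 1.5).

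ESCRT-III subunits polymerise into filaments that narrow the neck of a vesicle or a dividing cell, and the Vps4 ATPases take the filaments apart. Of these 12 genes 8 were compared, with 1 at least 2-fold higher (12.5%, as among all genes), 1 at least 2-fold lower (12.5%, against 16.7%) and a median log2 ratio of 0.00. Chmp4b, the main filament subunit, had 35 counts in siDnmt1 and 98 in scrambled, 2.80-fold lower (1.89 to 4.25). Its transcript is short (1616 nt), and with the length trend removed its log2 ratio of -1.36 was -0.85. The more abundant subunits differed less in their counts: Chmp7 had 919 and 754 counts, Chmp2a 349 and 258, Chmp3 297 and 363, and Chmp1a 224 and 341. The transcript of Chmp2a is shorter still (949 nt), and with the length trend removed its log2 ratio of 0.43 was 1.53. With that trend removed, 2 of the 8 genes were at least 2-fold higher and 0 lower. Among all 7270 genes compared that had a length, 938 were then higher and 1018 lower. The summed counts of the 12 genes were 2026 and 2017.

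The Vps4 genes differed in opposite directions. Vps4b had 66 counts in siDnmt1 and 21 in scrambled, 3.14-fold higher (1.90 to 5.41), and Vps4a had 95 and 133, 1.40-fold lower (1.07 to 1.84). Per length, Vps4b was 24.6% of the level of the pair in siDnmt1 and 6.91% in scrambled, so Vps4a was the more abundant in both. A processed pseudogene, Gm4939, matches Vps4b at 96.0% over 1329 nt, which makes its count uncertain.

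HOPS tethers late endosomes to lysosomes and CORVET tethers early endosomes to each other. All 7 were compared and 0 reached 2-fold, against 29.1% of all genes compared in either direction. Log2 ratios ran from -0.63 to 0.42 with a median of -0.04. Vps39, specific to HOPS, had 134 and 210 counts, 1.57-fold lower (1.26 to 1.96), and Vps41, its other specific subunit, had 101 and 74. The CORVET gene Vps8 had 443 and 477, and the shared core genes Vps11 (121 and 107), Vps16, Vps18 (116 and 127) and Vps33a had intervals that contained equality.

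GARP tethers vesicles from endosomes at the Golgi, and 3 of its 4 genes were compared. Vps54 had 44 and 17 counts, 2.59-fold higher (1.45 to 4.83), with a log2 ratio of 0.79 under a pseudocount of 20. Vps52 had 166 and 100, 1.66-fold higher (1.29 to 2.15), and Vps53 had 185 and 168, with an interval that contained equality. Ccdc132, also called Vps50, takes the place of Vps54 in the related EARP complex and lies outside the name rule. It had 322 and 113 counts and was 2.85-fold higher (2.29 to 3.56). The fourth gene, Vps51, had 8 and 14 counts and was not compared.

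**Figure D3:**
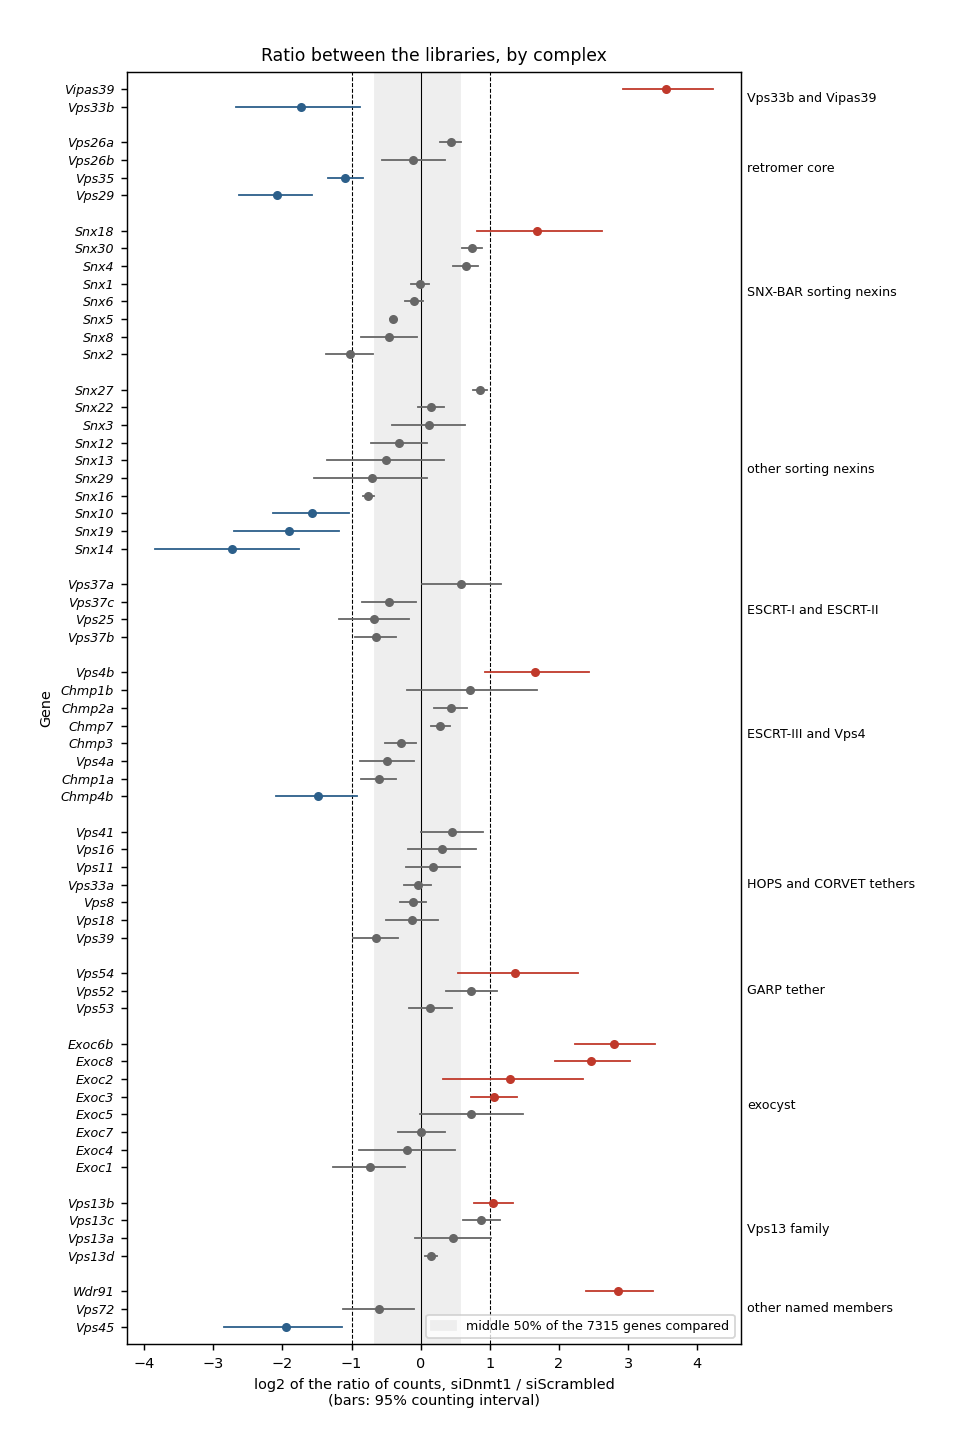
Points give log2 of the plain ratio of counts (siDnmt1 over scrambled) for the 61 genes, with 95% counting intervals as bars; the shaded band is the middle 50% of the 7315 genes compared on the scale with the pseudocount, and dashed lines mark 2-fold. Coloured points passed 2-fold with the pseudocount: 4 of the 8 exocyst genes lie to the right and 0 to the left, whereas all 7 HOPS and CORVET genes lie between the dashed lines.

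The exocyst is a complex of 8 subunits that tethers secretory vesicles to the plasma membrane, and in mouse the sixth subunit is encoded by Exoc6 or Exoc6b. Of its 9 genes 8 were compared, and 4 stood at least 2-fold higher and 0 lower in siDnmt1, against 12.5% and 16.7% of all genes compared. Exoc6b had 208 counts in siDnmt1 and 30 in scrambled, 6.93-fold higher (4.71 to 10.5). Exoc8, a subunit that binds Ral GTPases, had 199 and 36, 5.53-fold higher (3.86 to 8.12). Exoc3 had 233 and 112, 2.08-fold higher (1.65 to 2.63), and Exoc2, the other Ral-binding subunit, had 32 and 13, 2.46-fold higher (1.26 to 5.11). Exoc3 and Exoc2 stood at the threshold: with equal totals, with a pseudocount of 20 or with the length trend removed, 2 of the 8 genes reached 2-fold.

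The other exocyst genes were nearer to equality. Exoc5 had 43 and 26 counts, Exoc7, which binds the plasma membrane, 149 and 148, and Exoc4 35 and 40, each with an interval that contained equality. Exoc1 had 51 and 85 and was 1.67-fold lower (1.16 to 2.41). Exoc6 had 18 and 8 counts and was not compared. The summed counts of the 9 genes were 968 in siDnmt1 and 498 in scrambled, 1.94-fold higher (1.74 to 2.17). Most of this difference lay in Exoc6b (208 and 30) and Exoc8 (199 and 36), so the sum does not describe the other subunits. Per length, Exoc7 held 37.7% of the complex in scrambled and 20.9% in siDnmt1, while Exoc8 held 6.9% in scrambled and 21% in siDnmt1, and Exoc6b 4.9% and 18.5%. The order of the subunits thus differed between the libraries. Sprtn, which starts 181 nt from Exoc8 on the opposite strand, had 590 and 328 counts and lay within 2-fold. Exoc5 overlaps Ap5m1 on the opposite strand, which had 124 and 16 counts.

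The Vps13 proteins are long bridges that carry lipids between membranes. All 4 genes had log2 ratios above 0, with a median of 0.64, and 1 was at least 2-fold higher. Of all 7315 genes compared, 3560 were above 0 and 12.5% were at least 2-fold higher. Vps13b had 340 and 164 counts, 2.07-fold higher (1.72 to 2.51), Vps13c 318 and 173, 1.84-fold higher (1.52 to 2.23), and Vps13d 2314 and 2088, 1.11-fold higher (1.04 to 1.18). Vps13a had 69 and 50, with an interval that contained equality. With equal totals the log2 ratio of Vps13b was 0.96, under 2-fold, and with the length trend removed that of Vps13d was -0.09.

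Transcript length moved with the ratio across the whole table. The median log2 ratio of all genes compared was -1.04 below 1500 nt, -0.17 from 1500 to 3000 nt, 0.05 from 3000 to 5000 nt and 0.17 from 5000 nt. The sorting and exocyst genes had medians of 0.11 (3 genes), -0.43 (23), 0.28 (21) and 0.48 (14) in these classes. The longest were the Vps13 genes (median 12642 nt) and the exocyst genes (4711 nt), and the shortest the ESCRT-III and Vps4 group (2351 nt). With a lowess trend on length removed, the medians were 0.65 for the exocyst (0.83 as reported), 0.43 for the Vps13 genes (0.64), -0.65 for retromer (-0.58) and -0.55 for the other sorting nexins (-0.51). Over the 61 genes, 8 were then at least 2-fold higher and 7 lower. Among all 7270 genes compared that had a length, 938 were higher and 1018 lower.

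**Figure D4:**
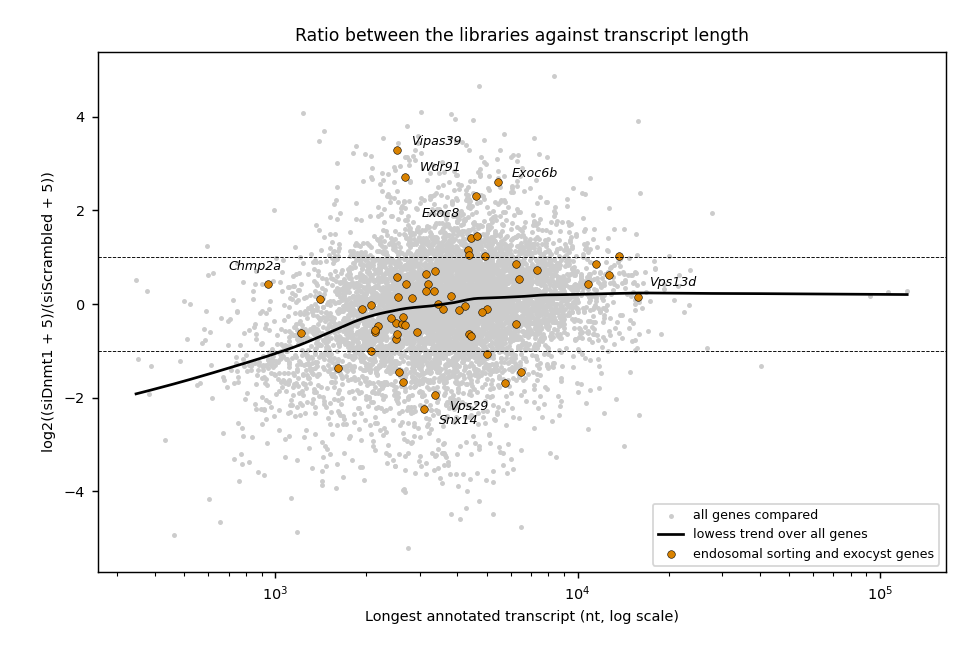
Each point is a gene, with the length of its longest annotated transcript (log axis) against its log2 ratio; grey points are all genes compared, the line is their lowess trend, and orange points are the sorting and exocyst genes. The trend falls below -1 at the shortest transcripts, and Vipas39, Wdr91, Exoc6b and Exoc8 lie far above it.

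Other genes of these pathways were taken from 5 lists of genes outside the name rule, which were drawn up with earlier results of these data known. Of their 88 symbols 85 were in the table and 64 were compared, of which 9 were at least 2-fold higher (14.1%, against 12.5% of all genes) and 11 lower (17.2%, against 16.7%), with a median log2 ratio of 0.09. The counts of each list, which are small, stand against the same shares of all genes. They were not recomputed under other pseudocounts or scalings. Of 13 ESCRT partners compared, 1 was higher and 3 lower. Tsg101, the ESCRT-I subunit that binds ubiquitin and viral late domains, had 26 and 64 counts, 2.46-fold lower (1.54 to 4.05), and Mvb12a, also of ESCRT-I, had 4 and 48, 12-fold lower (4.39 to 45.8). The deubiquitinase Usp8, which acts on ESCRT cargo, had 677 and 1504, 2.22-fold lower (2.03 to 2.44). Stambp, another deubiquitinase of endosomes, had 142 counts and 0, which is 47.3-fold higher against a floor of 3 counts and at least 38.0-fold higher by the counting interval.

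Of 10 retromer, WASH and retriever partners compared, 0 were higher and 4 lower (40.0%, against 16.7% of all genes). Of the lower genes, Commd2, Commd4 and Commd5 passed the minimum only through scrambled, so the 40.0% follows in part from that minimum. Rab7, the late endosomal GTPase that recruits retromer, had 918 and 2378 counts, 2.59-fold lower (2.40 to 2.80). The genes compared of the CCC complex, which works with retriever in recycling, differed in both directions. Commd2 (15 and 68) and Commd5 (6 and 40) were 4.53-fold and 6.67-fold lower, and Commd4, with 0 and 51, was 17.0-fold lower against the same floor and at least 13.3-fold lower by the counting interval. Commd7 had 80 and 38 counts, 2.11-fold higher (1.41 to 3.18), which is just short of 2-fold with the pseudocount (0.98), and Ccdc93 had 431 and 366, 1.18-fold higher (1.02 to 1.36). The tethering and early endosome list had 3 higher and 1 lower of 22. Here the early endosomal GTPase genes differed in opposite directions, with Rab5b at 261 and 81 counts (3.22-fold higher, 2.50 to 4.19) and Rab5a at 39 and 83 (2.13-fold lower, 1.44 to 3.20). With the pseudocount, Rab5a had a log2 ratio of -1, exactly at the threshold. Fig4, a phosphatase that controls endosomal lipid, had 2180 and 764 counts (2.85-fold higher, 2.63 to 3.10).

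Of 11 exocyst partners compared, 4 were higher (36.4%, against 12.5% of all genes) and 1 lower (9.09%, against 16.7%). Of the higher genes, Ralb passed the minimum only through siDnmt1. The Ral GTPase genes, whose products bind Exoc2 and Exoc8, also differed in opposite directions. Rala had 27 counts in siDnmt1 and 105 in scrambled, 3.89-fold lower (2.53 to 6.18), and Ralb had 40 and 9, 4.44-fold higher (2.12 to 10.4). Ralgapb, a subunit of the complex that switches Ral off, had 126 and 28 counts, 4.50-fold higher (2.97 to 7.04). Rab11b, a GTPase of recycling endosomes, had 433 and 160 (2.71-fold higher, 2.25 to 3.26), and Rab3ip, which activates Rab8, 55 and 25 (2.20-fold higher, 1.35 to 3.68).

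Among 8 cargo receptors compared, 1 was higher and 2 were lower. Igf2r, the mannose 6-phosphate receptor that retromer returns to the Golgi, had 11698 and 3488 counts (3.35-fold higher, 3.23 to 3.48), while M6pr, the smaller receptor of the same kind, had 1477 and 1131. The transferrin receptor Tfrc had 4005 and 10100 counts, 2.52-fold lower (2.43 to 2.62), and Lrp1, an endocytic receptor, had 144 and 404, 2.81-fold lower (2.31 to 3.42). The receptors did not share a direction.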

How the data were processed

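Counts per gene were deposited by the authors in 1 table with 1 column per library, and both columns were matched to a sample by name. Per the submitters' processing notes, the build was mm9 and the tools included HTSeq, HISAT2, Trim Galore and DESeq2, without versions. The annotation used, and whether strand was read, is not given in the sources used here. Per the labels, cDNA was amplified by 20 cycles of PCR, and no molecular identifiers are described, so intervals cover counting error only. The table is described as DESeq2-normalised. No whole number from 1 to 59 was skipped (0 in both columns) and none from 2 to 30 was more frequent, relative to the numbers beside it, than 1.23 in siDnmt1 and 1.29 in scrambled. Copies scaled by 1.01 skipped 1 number and by 0.98 gave ratios of 1.88 and 1.82, so the values were treated as unscaled counts. Scaling by 0.99 gave the same ratios as the deposited columns and would not be seen, and factors below 0.5 were not tried.

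With 1 library per group no test was possible. Log2 ratios used a pseudocount of 5 and genes averaging 20 counts or more, and plain ratios carry 95% Clopper-Pearson intervals. A fold against 0 counts used a floor of 3 counts in that library. Genes named are those at least 2-fold apart, the extremes of each complex and all genes of complexes with fewer than 5 compared; any others were picked with their values in view. The members and lists were chosen with earlier results of these data known. Transcript lengths were those of the longest GENCODE M21 transcript (GRCm38, not mm9), found for 85 of 85 genes, and the lowess span was 0.3. RefSeq promoters were matched by symbol. The ratio and interval computations were tested on simulated data. Scaling factors came from DESeq2 1.42.0 and edgeR 4.0.16 under R 4.3.3; the rest used scipy 1.17.1, pandas 2.3.3, statsmodels 0.14.6 and numpy 2.4.6 under Python 3.11.15.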

Additional observations from a re-analysis of the deposited data

How the results depend on the processing

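Results were recomputed with pseudocounts of 1 and 20, no minimum or a mean of at least 100 counts, 5 scalings (equal totals, equal totals without Rn45s, edgeR TMM factors, DESeq2 size factors, a median log2 ratio of 0), the length trend removed, without Vipas39 and Wdr91, at 4-fold and by means. No leave-one-out or paired fit was run: No paired analysis was possible because each group had 1 library. Scaling shifted all log2 ratios by -0.07 (equal totals), 0.09 (without Rn45s) and 0.02 (TMM). The DESeq2 size factors were 1 in both libraries, so that setting repeated the reported values and checked nothing. All 18 genes past 2-fold kept their direction under the 8 settings of pseudocount, scaling and length, but this was fixed in advance. A pseudocount cannot change a sign, and the shifts by scaling and length were smaller than the log2 ratios of these genes. Of the 18 genes, 11 stayed past 2-fold in all 8 settings. The count of higher genes, 10 as reported, was 5 with a pseudocount of 20, 6 at a mean of at least 100 counts (37 genes) and 4 at 4-fold. That of lower genes, 8 as reported, was 2 at a mean of at least 100 counts and 1 at 4-fold. With a pseudocount of 20, 679 of all 7315 genes compared were higher and 937 lower. The shares over all genes at a mean of at least 100 counts and at 4-fold were not computed. The median over all genes of the set was 0.15 with the length trend removed and 0.15 with no minimum (81 genes). With the length trend removed, the medians were -0.055 for ESCRT-I and ESCRT-II and 0.23 for the BAR sorting nexins, which had 0.040 with equal totals without Rn45s and 0.11 as a mean. With no minimum, ESCRT-I and ESCRT-II had -0.075 and the other sorting nexins 0.11, against -0.51 as reported. With a mean of 100 counts or more, the medians were -0.29 for ESCRT-III and Vps4 (5 genes), 1.67 for the exocyst (4) and -1.07 for retromer (3). The minimum settings change which genes are counted. Exoc6b (208 and 30) and Exoc8 (199 and 36) passed a mean of 100 counts only through siDnmt1. Vps29 (39 and 165) passed it only through scrambled. The exocyst and retromer medians at that minimum therefore follow in part from the filter and support nothing. Depth limits the 24 genes under 20 counts most.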
